A study of Mus musculus with 8 samples.

Results

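A group of 8 genes of sterol and lipoprotein handling was examined in mouse spleen stroma that had been cultured with leukemic B cells: *Apoe*, *Ch25h*, *Abca1*, *Abcg1*, *Nr1h2*, *Nr1h3*, *Lpl* and *Mylip*. The genes were chosen by name, with earlier results of these arrays known, so their differences between the groups are given as descriptions and not as tests. The array held 9 probes for 7 of the 8 genes, out of 25697 probes for 16593 named genes in all. No probe was matched to *Nr1h2* by symbol, and its level was not analysed here. A probe counted as detected on an array when the scanner's detection p was below 0.05, and a gene was measured further when a probe of it was detected on at least 4 of the 8 arrays. *Apoe*, *Ch25h*, *Nr1h3*, *Lpl* and *Mylip* passed this filter with 1 probe each, and *Abca1* and *Abcg1* did not.

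The study asked which transcripts of splenic stroma differ when the stroma meets chronic lymphocytic leukemia (CLL) cells. Stroma labelled mSSC-YFP, a line immortalised from E18.5 embryonic spleen, was used at passage 2 to 6 and kept with B cells for 40 to 48 h, at 20 B cells for each stromal cell according to the labels, and YFP-positive stroma was then sorted away from the lymphocytes. The 4 leukemic arrays carry stroma cultured with splenic leukemic cells of adult Eμ-TCL1 mice, in which the Eμ enhancer drives a TCL1 transgene in B cells, and the 4 control arrays carry stroma cultured with splenic B cells of age-matched adult mice, all labelled C57BL6/N. The stroma is therefore 1 line without a transgene of the leukemia, and the labels do not say whether arrays of a group came from separate cultures or from B cells of separate mice, so the spread between arrays may be technical.

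Cells read their sterol load through oxysterols, which are oxidised derivatives of cholesterol. Oxysterols bind the liver X receptors LXRα (*Nr1h3*) and LXRβ (*Nr1h2*), nuclear receptors that pair with retinoid X receptors, and in macrophages the receptors then switch on the sterol exporters *Abca1* and *Abcg1*, the lipoprotein *Apoe*, lipoprotein lipase *Lpl* and *Mylip*, the ubiquitin ligase that removes the LDL receptor. *Ch25h* encodes an enzyme that makes an oxysterol from cholesterol and is known as an interferon-induced gene of immune cells. The oxysterols derived from its product guide B cells in lymphoid tissue, where stroma makes and degrades them.

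RefSeq promoter windows of the build GRCm38.p6, each running from 250 bases before to 50 bases after an annotated gene start, were matched to 6 of the 8 genes and gave 9 windows, with 3 for *Apoe* and 2 for *Nr1h3*. The windows of *Ch25h* (chr19:34475099-34475398, minus strand) and of the most upstream *Apoe* start (chr7:19699139-19699438, minus strand) are shown because these genes had the highest differences among the members, and capitals mark the only motif match found in the 9 windows.
Ch25h: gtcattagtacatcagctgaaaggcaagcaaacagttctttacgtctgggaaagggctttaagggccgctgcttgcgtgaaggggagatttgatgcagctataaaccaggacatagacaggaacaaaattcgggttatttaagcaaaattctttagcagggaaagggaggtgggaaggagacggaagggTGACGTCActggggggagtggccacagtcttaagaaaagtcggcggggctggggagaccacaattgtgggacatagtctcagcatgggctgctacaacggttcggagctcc
Apoe: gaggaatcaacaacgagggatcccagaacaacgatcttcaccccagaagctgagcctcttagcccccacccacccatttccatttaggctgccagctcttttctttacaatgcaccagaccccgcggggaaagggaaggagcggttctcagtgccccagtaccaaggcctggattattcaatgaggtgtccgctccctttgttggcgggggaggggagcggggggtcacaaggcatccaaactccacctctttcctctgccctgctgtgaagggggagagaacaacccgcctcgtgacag
The capitals in the *Ch25h* window spell TGACGTCA, the cyclic AMP response element, whose first base lies at position -61 relative to the gene start. This element was present in 1.79% of all 32851 windows. The other motifs were searched on both strands in the same way and were found in 0 of the 9 member windows. They were the direct repeat that LXR binds with its partner, AGGTCA followed after 4 bases by AGGTCA (0.0152% of all windows), a degenerate form of that repeat (0.788%), the single AGGTCA element that the repeat contains (16.3%) and the core of the interferon-stimulated response element, GAAA followed after 2 bases by GAAA (3.44%). A match is a description of the letters, and the absence of one covers only these windows.

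The 8 arrays were on 1 chip, and between 13504 and 13938 probes were detected on each. Leukemic array 4 stood apart: its correlation with the other 7 arrays was 0.955 to 0.970, against 0.984 to 0.995 among those 7. These correlations ran over 9971 features, each the brightest kept probe of a gene or a kept probe without a symbol. Between 16 and 17 of 19 fibroblast markers were detected on each array, led by *Dcn* and *Vim*, and of the transcription factors of spleen mesenchyme *Nkx2-5* was detected on all 8 arrays and *Tlx1* and *Tcf21* on none. B cell markers followed the groups, with 9 to 15 of 19 detected on the leukemic arrays and 6 to 7 on the control arrays. The highest number was on leukemic array 4. *Ms4a1*, *Pax5* and *Spib* were detected on none, and *Fcmr* and *Mzb1* were the brightest. The rank product called 6 of the 7 B cell markers past the filter higher with leukemic cells, where it called 0.411% of all features higher.

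*Apoe*, the apolipoprotein that ligates receptors of the LDL receptor family, had the highest difference of the members. Its deposited signals were 109.8, 200.7, 96.7 and 1077 on leukemic arrays 1 to 4, and 65.2, 71.8, 121 and 68.8 on control arrays 1 to 4. Leukemic array 4 was far above the rest, leukemic arrays 1 and 3 lay near control array 3, and the groups overlapped because control array 3 exceeded leukemic arrays 1 and 3. On the normalized log2 scale the values were 6.44, 7.14, 5.94 and 9.72 on the leukemic arrays and 5.29, 5.22, 6.31 and 5.13 on the control arrays. On that scale control array 3 exceeded leukemic array 3 only. The mean was 7.31 ± 1.68 with leukemic cells and 5.49 ± 0.55 with control B cells (SD, n = 4 each), a difference of 1.83 ± 0.67 (SE) or 3.55-fold. The difference of the medians was 1.54. Only 1 of the 9971 features had a higher difference of means, but the size rested on leukemic array 4: without it the *Apoe* difference was 1.02. Control arrays 1, 2 and 4 read *Apoe* with detection p-values of 0.0288, 0.0276 and 0.0414, close to the limit of 0.05, so the control level lay near the background of the array.

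**Figure D1:**
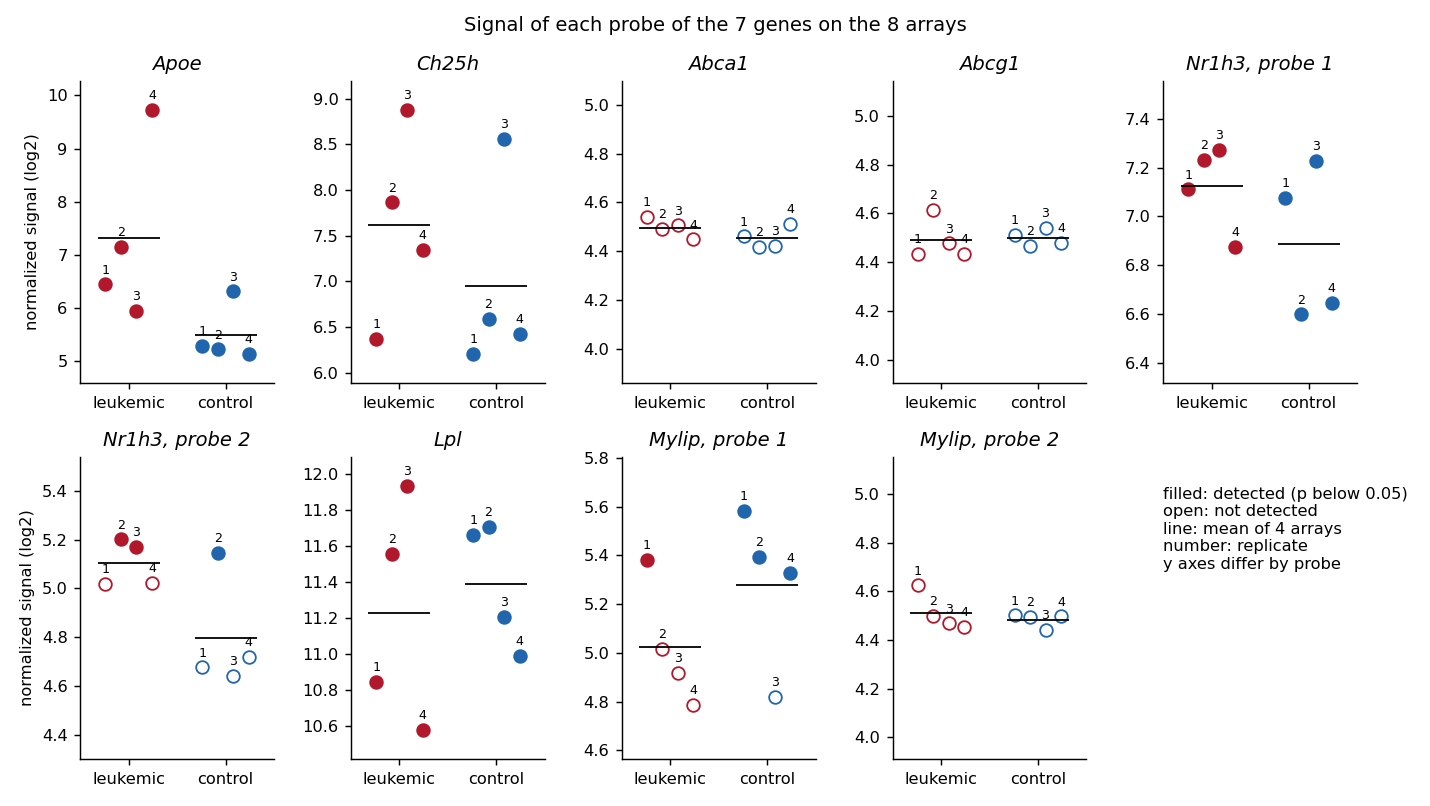
Normalized log2 signal of each of the 9 probes on the 8 arrays, with leukemic arrays in red on the left and control arrays in blue on the right of each panel; filled points were detected, open points were not, lines are means of 4 arrays, and the y axes differ. *Apoe* reaches 9.72 on leukemic array 4, *Ch25h* is highest on arrays 3 of both groups (8.87 and 8.56), and *Abca1* and *Abcg1* stay at the floor throughout.

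Leukemic array 4, with the highest *Apoe*, also had the highest summed signals of B cell, general leukocyte and myeloid markers. That array also had the highest fibroblast sum (118476) and the lowest endothelial sum (779). Its T and NK cell sum (301) was below that of leukemic array 3 (416). The summed background-corrected signal of the 19 B cell markers was 1221, 914, 774 and 6594 on leukemic arrays 1 to 4, and 451, 439, 642 and 518 on control arrays 1 to 4. The highest B cell sum in each group fell on the array with the highest *Apoe*, leukemic array 4 and control array 3, while leukemic array 1 had a higher sum than leukemic array 2 at a lower *Apoe*. The sum of 21 macrophage and myeloid markers was 1617, 1455, 1179 and 3097 on the leukemic arrays, and 1228, 935, 1094 and 1172 on the control arrays, so that control array 3 was not the highest of its group. Of those 21 markers 12 were detected on no array, among them *Adgre1*, *C1qa*, *C1qb*, *C1qc*, *Cd163* and *Itgam*, which define macrophages, and the brightest were *Cd14* and *Lyz1*. Of the 4 myeloid markers past the filter, 2 were called higher with leukemic cells, where 0.411% of all features were. The general leukocyte markers gave sums of 3309 to 7414 on the leukemic arrays and 3799 to 4125 on the control arrays, led by *Arhgdib* and *Laptm5*, with *Ptprc*, the pan-leukocyte antigen, detected on none. Without leukemic array 4 the B cell sums were still 774 to 1221 with leukemic cells, against 439 to 642 with control B cells. The part of such cells in the *Apoe* signal was not tested. In sorted bulk RNA, fewer cells of a type and less RNA per cell cannot be told apart.

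**Figure D2:**
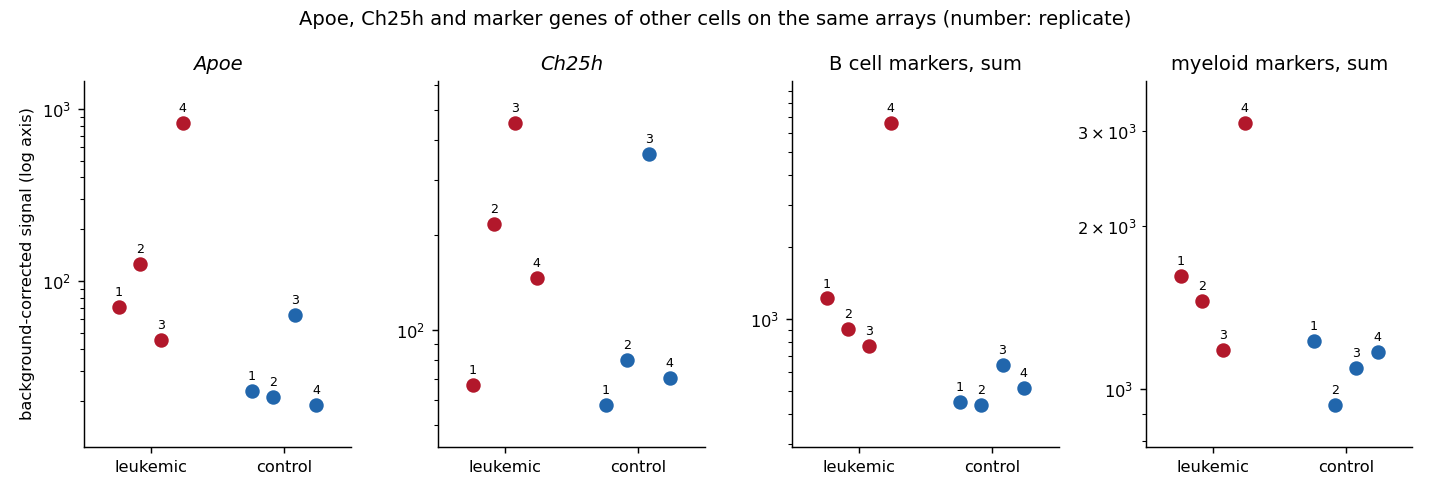
Background-corrected signal of *Apoe* and *Ch25h* and summed signal of the B cell and myeloid markers on each array, on log axes that differ by panel, with leukemic arrays in red on the left and control arrays in blue on the right and numbers naming the replicate. The B cell sum is 6594 on leukemic array 4 and at most 1221 on any other array, and *Ch25h* follows another order, with its highest values on arrays 3.

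*Ch25h*, the oxysterol-producing enzyme, was also higher on average with leukemic cells, with a spread (SD) within each group wider than the difference. Its signals were 106, 308, 515 and 237 on leukemic arrays 1 to 4, and 91.8, 131, 433 and 118 on control arrays 1 to 4. The groups overlapped widely, since control array 3 was above 3 of the 4 leukemic arrays and leukemic array 1 was below 3 of the 4 control arrays. The log2 values were 6.37, 7.87, 8.87 and 7.34 on the leukemic arrays and 6.21, 6.59, 8.56 and 6.43 on the control arrays, with means of 7.61 ± 1.04 and 6.95 ± 1.09 (SD, n = 4 each). The difference was 0.67 ± 0.58 (SE) or 1.59-fold, and the difference of medians was 1.09. Single arrays decided its size: without leukemic array 3 it was 0.24, and without control array 3 it was 1.20. Among the leukemic arrays, array 3 had the highest *Ch25h* and the lowest B cell and myeloid marker sums (774 and 1179), and among the control arrays, array 3 had the highest *Ch25h* and the highest B cell sum (642). The part of such cells in the *Ch25h* signal was not tested.

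The transcript of *Nr1h3*, which encodes the sterol receptor LXRα, was detected on all 8 arrays through its brighter probe. The receptor protein was not measured, and the part of other cells in this signal was not tested. The signals of that probe were 153, 211, 191 and 183 on the leukemic arrays and 137, 131, 194 and 132 on the control arrays. On the log2 scale the values were 7.11, 7.23, 7.27 and 6.87 on the leukemic arrays and 7.08, 6.60, 7.23 and 6.64 on the control arrays. The groups overlapped there, as control arrays 1 and 3 were above leukemic array 4. The log2 means were 7.12 ± 0.18 with leukemic cells and 6.89 ± 0.31 with control B cells (SD, n = 4 each), a difference of 0.24 ± 0.18 (SE). The second *Nr1h3* probe gave signals of 62.6, 78.9, 71.5 and 77.7 on the leukemic arrays and 51.8, 70.1, 56.2 and 57.1 on the control arrays. It was detected on leukemic arrays 2 and 3 and control array 2 and not on the other 5 arrays.

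Neither of the sterol exporters that serve as the standard readout of LXR was detected. *Abca1*, which loads cholesterol onto apolipoproteins, gave signals of 49.1, 51.0, 48.8 and 49.3 on the leukemic arrays and 44.1, 44.8, 44.7 and 48.9 on the control arrays. *Abcg1*, which exports sterol to mature lipoprotein particles, gave 44.1, 57.6, 47.3 and 48.2 on the leukemic arrays and 46.4, 47.7, 51.7 and 47.2 on the control arrays. Every one of these 16 readings was below the dimmest detected probe of its own array, whose signal was 60.9 to 80.4, and the lowest detection p was 0.465 for *Abca1* and 0.294 for *Abcg1*. Each exporter was read by 1 probe, and whether that probe can read its transcript was not tested. These values therefore give neither a level nor a fold change.

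*Mylip* and *Lpl*, known LXR targets in macrophages, had lower means with leukemic cells, by amounts close to their standard errors. *Mylip* signals on its brighter probe were 71.3, 73.2, 64.2 and 68.5 on the leukemic arrays and 72.1, 77.0, 62.8 and 74.6 on the control arrays. The probe was detected on 1 leukemic and 3 control arrays, so it passed the filter at its lowest limit, and the groups overlapped. Its log2 means were 5.03 ± 0.25 with leukemic cells and 5.28 ± 0.33 with control B cells (SD, n = 4 each), a difference of -0.25 ± 0.20 (SE). The second *Mylip* probe was detected on no array, at signals of 46.7 to 52.2 with leukemic cells and 45.9 to 49.1 with control B cells.

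*Lpl*, the lipase that frees fatty acids from circulating lipoproteins, gave strong signals on the arrays of both groups. It is also a known marker of aggressive disease when human CLL cells express it. Its signals were 1584, 3606, 4138 and 1886 on leukemic arrays 1 to 4 and 2506, 3212, 2504 and 2031 on control arrays 1 to 4. The part of other cells in the *Lpl* signal was not tested. The leukemic arrays held both the highest and the lowest readings and enclosed all control arrays. The log2 means were 11.23 ± 0.63 with leukemic cells and 11.39 ± 0.35 with control B cells (SD, n = 4 each), and the difference of -0.16 ± 0.28 (SE) changed sign to 0.05 without leukemic array 4. Adipocyte markers, led by *Pparg* and *Plin4*, had sums of 576 to 736 on the leukemic arrays and 554 to 831 on the control arrays, and *Cebpa*, *Cidec*, *Fabp4*, *Plin1* and *Retn* were detected on none.

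**Figure D3:**
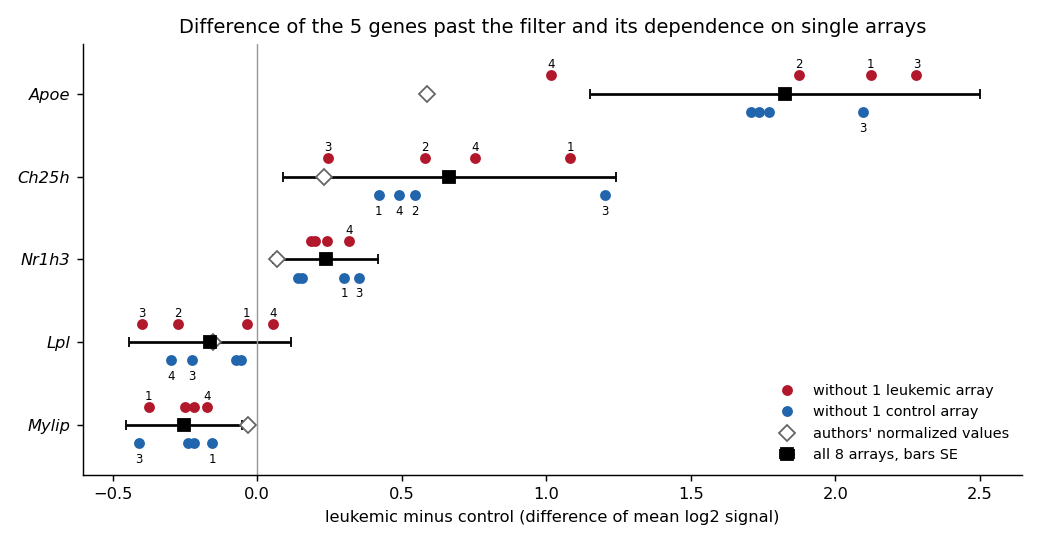
Difference of mean log2 signal, leukemic minus control, of the 5 genes past the filter with all 8 arrays (square, bars SE), with 1 leukemic array left out (red), with 1 control array left out (blue) and in the authors' normalized values (diamond); numbers name the array left out where points do not crowd. *Apoe* stays between 1.02 and 2.28 when 1 array is left out, *Ch25h* between 0.24 and 1.20, and *Lpl* crosses 0.

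Set against all features, the rank product, the ranking test that the study names, called *Apoe* and *Ch25h* among the 5 members past the filter as higher with leukemic cells, where it called 0.411% of all 9971 features (41) higher. It called 0 members lower and 0% of all features lower. These counts come from the contrast on which the members were known, and nothing is read from them. The *Ch25h* call lay close to the limit of 0.05, at q = 0.0444. Without leukemic array 4 the rank product called 6 features higher, with *Apoe* and without *Ch25h*. With the replicate number as a block it called *Apoe* and not *Ch25h*, though the labels do not say that a number pairs arrays. In the authors' normalized values, where low signals are compressed, the differences were 0.59 for *Apoe* and 0.23 for *Ch25h* and neither was called. Limma, which uses each gene's own spread, called none of the 9971 features (0%; smallest adjusted p = 0.639), with 756 features (7.58%) at an unadjusted p below 0.05. No member had all leukemic arrays above or below all control arrays, which 2.21% of features had in the higher and 2.31% in the lower direction.

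The members did not share 1 pattern across the arrays. *Ch25h* and *Nr1h3* had a Pearson correlation of 0.64 over the 8 arrays, and *Apoe* and *Ch25h* had one of 0.26. The values of *Mylip* ran opposite to *Ch25h* (-0.85) and to *Apoe* (-0.67), and *Lpl* ran opposite to *Apoe* (-0.59). Arrays of both groups enter these correlations, and each is a description over 8 points of 1 chip. Among the 9173 other named features, those most like *Apoe* were *Mapkbp1* (r = 0.99), *Cyp4f18* (0.99) and *Tgfb3* (0.98). Over the 7 arrays other than leukemic array 4 their r was 0.97, 0.95 and 0.92, on arrays that had also served to pick them. *Ch25h* was most like *Slco2a1* (0.95), *Gdpd5* (0.93) and *Myom1* (0.93), and *Nr1h3* most like *Fgf10* (0.96), *Hnf4a* (0.94) and *Pde10a* (0.91). *Lpl* was most like *2310022A10Rik* (0.98), *Rnu6* (0.97) and *Dut* (0.97), and *Mylip* most like *Lrif1*, *Siae* and *Mmgt2* (each 0.96). All these genes were picked as the highest of 9173 values over 8 arrays, where a high r can arise by chance, and none was tested.

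The surrounding pathway was read through 7 lists of 157 genes, of which 134 had a probe and 101 passed the filter. The rank product called 0 of the 101 in either direction (lowest q = 0.339) and limma called 0. An unadjusted limma p below 0.05 was reached by 14 of the 101, where 7.58% of all features reached it. The mean was higher with leukemic cells for 42 genes and lower for 59, where 50.6% of all features were higher. Only *Lrpap1*, 1 gene of the 101, had all leukemic arrays above all control arrays, where 2.21% of all features did. *Osbpl1a*, *Osbpl3*, *Nsdhl*, *Cyp51* and *Sqle* (5 of the 101) had all leukemic arrays below all control arrays, where 2.31% of all features did, and *Cyp51* and *Sqle* are named here after their values were seen.

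Of 15 genes that make, degrade or bind oxysterols, 7 had higher and 8 lower means with leukemic cells, with a median difference of -0.04. *Cyp7b1*, which hydroxylates the *Ch25h* product further, had a difference of 0.45 ± 0.27 (SE), which was 0.22 without leukemic array 4 and 0.71 without leukemic array 3. The oxysterol-binding family members *Osbpl3* and *Osbpl1a* differed by -0.55 ± 0.19 (-0.36 without leukemic array 4) and -0.41 ± 0.15 (-0.06 in the authors' normalized values). Of 16 LXR partners and cofactors, 9 had higher and 7 lower means (median 0.05), and both retinoid X receptors measured had small differences, 0.20 ± 0.15 for *Rxra* and 0.07 ± 0.11 for *Rxrb*. The coactivators *Ncoa1*, *Ppargc1a* and *Ncoa6* differed by 0.30 ± 0.20, 0.23 ± 0.26 and 0.22 ± 0.16, and by 0.18, 0.10 and 0.12 without leukemic array 4.

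The 19 other LXR targets had higher means in 6 and lower means in 13, with a median difference of -0.10. *Smpdl3a*, a phosphodiesterase, and *Tgm2*, a transglutaminase, differed by 0.57 ± 0.28 and 0.46 ± 0.25, and by 0.28 and 0.21 without leukemic array 4. *Fasn*, the fatty acid synthase, differed by -0.46 ± 0.17, and by -0.25 without background correction and -0.08 in the authors' normalized values. The lipogenic targets *Srebf1* and *Scd1* differed by -0.21 ± 0.16 and -0.28 ± 0.17. The target genes thus spread on both sides of 0, as *Apoe* and *Mylip* did.

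Of 9 lipoprotein receptors and uptake genes 6 had higher means, with the highest median of the 7 lists (0.18). *Lrpap1*, the chaperone of the receptors that bind ApoE, had log2 values of 11.60, 11.46, 11.45 and 11.75 on the leukemic arrays and 11.32, 11.17, 11.16 and 11.40 on the control arrays. Its groups stood apart by a narrow margin, with a difference of 0.30 ± 0.10 (SE). *Sort1*, the sorting receptor sortilin, and *Scarb2*, a lysosomal membrane protein, differed by 0.43 ± 0.18 (0.24 without leukemic array 4) and 0.26 ± 0.17 (0.15 without leukemic array 1), and the ApoE receptor *Lrp1* by 0.18 ± 0.21. Among 7 partners of lipoprotein lipase 3 had higher means (median -0.02), and *Lmf1*, which matures the enzyme, differed by 0.19 ± 0.12. The lipases and factors *Lipe* and *Sel1l* differed by 0.10 ± 0.20 and -0.09 ± 0.12, and *Angptl4*, the secreted inhibitor of the lipase, by -0.02 ± 0.15.

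Of 17 genes of sterol trafficking and export 8 had higher and 9 lower means, with a median of 0.00. *Cav1*, the caveolar coat protein that binds cholesterol, differed by -0.55 ± 0.20, *Gramd1b*, a sterol transfer protein, by -0.31 ± 0.23 (-0.11 without leukemic array 4), and *Lcat*, which esterifies cholesterol on lipoproteins, by 0.35 ± 0.17. Of 18 genes of cholesterol synthesis 15 had lower means with leukemic cells, with a median of -0.20, against a median of 0.00 over all features. *Sqle*, the squalene epoxidase, had log2 values of 12.90, 12.87, 12.85 and 12.92 on the leukemic arrays and 13.20, 13.26, 13.31 and 13.27 on the control arrays. *Nsdhl*, which acts later in the pathway, had 9.40, 9.69, 9.45 and 9.12 on the leukemic arrays and 9.91, 10.01, 9.93 and 10.06 on the control arrays. The groups did not overlap for either gene, with *Nsdhl* spread more widely among the leukemic arrays than among the control arrays, and with differences of -0.38 ± 0.07 and -0.56 ± 0.13 (SE). *Mvd* and *Dhcr7*, enzymes of an early and of the last step, differed by -0.46 ± 0.24 (-0.18 without leukemic array 4) and -0.40 ± 0.14. Over the scalings, the authors' values and each array left out, 14 to 16 of the 18 genes had lower means, and no gene of the list was called.

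**Figure D4:**
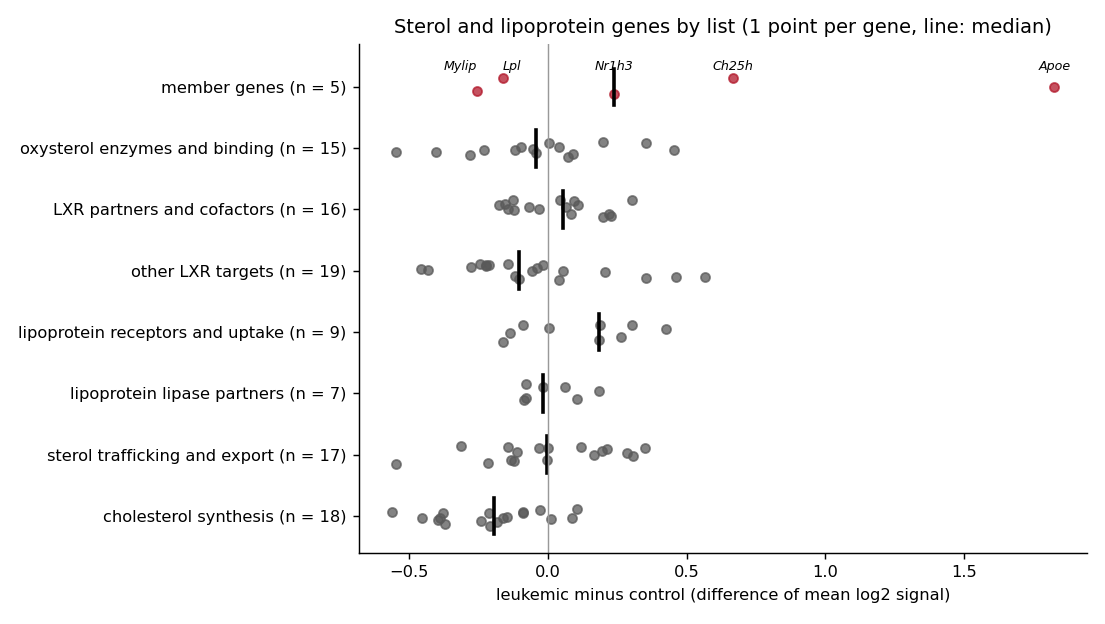
Difference of mean log2 signal, leukemic minus control, of the 5 members past the filter (red) and of the genes of 7 related lists (grey), 1 point per gene, with the median of each list as a line; the vertical jitter has no meaning. *Apoe* lies at 1.83, apart from every other point, and 15 of 18 cholesterol synthesis genes lie left of 0.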

How the data were processed

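Total RNA of sorted stroma was read on Illumina mouse bead arrays, 4 arrays per group on 1 chip. The authors deposited a linear signal intensity per probe without normalization, and beside it the detection p-value computed from negative control beads. They also deposited a log2-scale matrix normalized with lumi, whose exact transformation is not given in the sources used here.

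Signals were background-corrected with neqc of limma 3.58.1 in R 4.3.3 (offset 16, quantile normalization, log2). Probes detected (p below 0.05) on at least 4 arrays were kept, 13732 in number. The brightest kept probe stood for its gene, which gave 9971 features, 9174 of them named. Of the 25697 probes, 23978 matched 1 current symbol and 1719 none.

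All features were tested with a 2-class unpaired rank product over the 16 array pairs (100 permutations, q below 0.05), written anew, and with limma (trend, 2-sided, Benjamini-Hochberg). Both were tested on simulated data. The number of arrays limits the precision.

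Members and lists were chosen with earlier results of these data known. Genes named are all members, the genes of each related list that the rank product called and otherwise the 3 with the largest absolute differences, the 3 features most like each member, and the 2 brightest markers of each marker list; others were named after their values were seen. The marker lists not described above were endothelial cells, led by *Flt1* and *Egfl7*, with sums of 779 to 2172 on leukemic and 1794 to 2016 on control arrays, and T and NK cells, led by *Prf1* and *Klrb1c*, with sums of 176 to 416 on leukemic and 190 to 262 on control arrays. Alternatives were other background, scaling, filter and probe choices, the authors' values, a replicate block and arrays left out.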

Additional observations from a re-analysis of the deposited data

Results flagged for a closer look

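Outlying arrays were sought in 52 groups of 4 arrays. These covered the 5 members and the 21 related genes named for the 3 largest differences of their list. Other related genes named above, such as *Sqle* and *Cyp51*, were not checked. Of the 52 groups, 6 held 1 array far from the other 3 relative to the range of the group, and chance marks about 1 in 20 groups. Both members so marked were so in the control group, on control array 3. *Apoe* was highest there at 6.31 on the log2 scale, with the next control array at 5.29. *Ch25h* was highest there at 8.56, with the next control array at 6.59. *Dhcr7* was lowest on the same array, at 8.21 with the next at 8.60, and on leukemic array 2 it was highest, at 8.33 with the next at 8.08. On leukemic array 4, the array that correlated least with the others, *Sort1* was highest at 11.38 (next 10.71) and *Mvd* lowest at 9.67 (next 10.75). No cause of these values was tested.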

How the results depend on the processing

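The direction of *Apoe*, *Ch25h* and *Nr1h3* was the same in all 20 alternatives, that of *Mylip* in all 19 that kept its probe, and that of *Lpl* in 19 of 20. The alternatives of filter, probe choice, replicate block and permutations could not change these differences, so the same direction there is no support. *Apoe* was called by the rank product in 18 of 20 alternatives, and *Ch25h* in 7. Members called higher numbered 2 as reported and 1 (*Apoe*) without background correction, at offset 50 and under median scaling. They numbered 0 with the authors' values, and 1 or 2 with 1 array left out. Features called higher (41) became 23 without background correction, 24 at offset 50, 26 under median scaling and 18 in the authors' matrix. Features called lower (0) became 1 without background correction, 5 with the authors' values, 8 without the detection filter and 2 when detection on all 8 arrays was required. With 1 array left out, 6 (without leukemic array 4) to 41 features were called higher and 0 to 13 lower. The count of members without overlap between groups was 0, and 0 or 1 with 1 array left out, the 1 being *Apoe* without leukemic array 3 or without control array 3. Limma called 0 features in every setting.

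Settings added after seeing the data left out arrays in pairs or drew more permutations. Without both arrays numbered 3, 17 features were called higher, 1 member (*Apoe*) was called and 1 member had no overlap. Without both arrays numbered 4, 5 features were called higher and 7 lower, and 0 members, with an *Apoe* difference of 0.90. With 1000 permutations 34 features were called higher and 2 lower, with the same 2 members called. *Ch25h* was then at q = 0.0496 by the rank product, against 0.0444 as reported, both close to the limit of 0.05.

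Groups share replicate numbers, but the labels do not say that a number pairs arrays. Deviations from the group means of same-numbered arrays correlated at 0.25, 0.30, 0.19 and 0.03, and leukemic array 4 and control array 4 each correlated best with an array of another number. With a replicate block, 44 features were called higher and 18 lower, and 1 member (*Apoe*) was called, so that *Ch25h* lost its call. The block changed no call of the other 3 members or of the related genes.

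Depth on an array is signal over background. *Abca1*, *Abcg1* and the second *Mylip* probe were never above it, and *Apoe* on control arrays 1, 2 and 4 and *Mylip* on all arrays lay near it. The *Apoe* difference was 1.22 without background correction and 1.36 at offset 50. Among related genes of low signal, *Osbpl1a*, *Fasn* and *Lcat* shrank to -0.06, -0.08 and 0.06 in the authors' values.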

Other observations

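Several genes that would complete the pathway were measured and not detected on any array of either group. They were *Gpr183*, the receptor through which oxysterols guide B cells, *Cyp46a1* and *Cyp7a1*, hydroxylases of cholesterol in brain and liver, *Rxrg*, the third retinoid X receptor, and *Apoc1* and *Apoc4*, neighbours of *Apoe* in its gene cluster. The scavenger receptors *Cd36* and *Msr1*, the scavenger protein *Cd5l* and the lipase anchor *Gpihbp1* were likewise detected on 0 of 8 arrays. *Apoc2*, the remaining apolipoprotein of that cluster on the lists, was measured, with log2 values of 5.63, 5.61, 5.97 and 5.58 on the leukemic arrays and 5.61, 5.41, 5.41 and 5.55 on the control arrays. Its leukemic array 4, where *Apoe* was at its highest, was the lowest of its group.

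Probes of a gene did not always give the same size of difference. A second *Lcat* probe gave 0.07, against 0.35 for the brighter one, and the 4 *Nsdhl* probes gave -0.56, -0.47, -0.40 and -0.23, all lower.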
